A study of Bos taurus with 16 samples.

Results

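Genes with a transient peak on day 10 were studied in cattle, in the endometrium, which is the tissue that lines the uterus. Of 27607 gene IDs counted, 100 were chosen as members. A member had a day 10 value at least 2 times that on each of days 5, 14 and 18 and a day 10 median of at least 2 CPM. CPM is a gene's read count after its library is scaled to 1000000 gene reads, and a day value is the median CPM of the 4 libraries of that day plus 0.5. These values chose the members, so the peak itself is given as a description without a test.

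The animals were virgin Holstein heifers of at least 7 months, sexually mature and not lactating. Each had its cycle synchronised with a GnRH analog, a progesterone device in the vagina and the prostaglandin F2α analog cloprostenol, and was then inseminated at a set time with Holstein semen. Heifers were assigned at random to a biopsy on day 5, 10, 14 or 18, with 4 libraries per day and 16 in all. All groups therefore share the hormone treatment and the insemination, and no group without insemination was analysed here. The labels call these days early pregnancy, without giving the embryo status of single animals. Day 0, which the labels also name, was not analysed here.

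After ovulation the corpus luteum of the ovary secretes progesterone, which turns the endometrium into a secretory tissue. Its surface and gland epithelium releases proteins, lipids, sugars and amino acids that feed the embryo while it lies free in the uterus. Under lasting progesterone the epithelium is known to lose its progesterone receptor, and gene expression in the epithelium changes around that time. A biopsy holds epithelium, stroma, vessels and immune cells together. In such bulk samples fewer cells of a type and less RNA per cell cannot be told apart.

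Genes carry only Ensembl IDs in these data, and of the 27607 IDs 0 matched the RefSeq gene table used here. Members therefore have no symbol, function or sequence in this account. The labelled tissue and its cell types could not be checked against marker genes for the same reason. By a rule on level and ratio, 4 members are given by ID: the pair with the highest day 10 median and the pair with the largest ratio of day 10 to the highest other day.

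Gene reads ran from 18959090 to 24291006 per library, so 3 reads corresponded to 0.124 to 0.158 CPM. Day 5 replicate 3 and day 18 replicate 2 stood apart, with mean Pearson correlations of 0.859 and 0.855 with the other 15 libraries across genes on the log2 CPM scale, against 0.916 to 0.939 for the other 14. Day 18 replicate 3 had a mean of 0.928, inside that range, but correlated at 0.978 with day 5 replicate 4 and at a mean of 0.888 with its own day. Its closest library is of another day, as for 8 of 16 libraries, and whether its label is right could not be checked here. Day 5 replicate 4 was in turn closest to day 18 replicate 3, with a mean of 0.929 with its own day. Its label could not be checked either. Day 5 replicate 3 and day 18 replicates 2 and 3 are left out together below, and called the 3 that stand apart, to show which comparisons of days rest on them. Day 10 replicate 1, which matters for many members, did not stand apart over all genes, at 0.936, though its closest library was day 14 replicate 3, at 0.961. The labels speak of animals per day but do not tie each library to an animal beyond its number, and p-values measure the spread between these libraries.

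The members ran from 2.12 to 2631 CPM in the day 10 median, above the 2 CPM that the rule asks for, with a middle value of 35.6 CPM. On day 10, 8 members had a median of 1000 CPM or more, 23 lay from 100 to below 1000 CPM, 40 from 10 to below 100 CPM and 29 below 10 CPM. Most peaks were modest: the ratio of the day 10 value to the highest other day was 2.59 at the middle of the list, below 2.5 in 45 members and 4 or more in 14. The members were 0.737% of the 13564 genes with a day 10 median of at least 2 CPM. The same rule set on another day chose 258 genes for day 5, 89 for day 14 and 73 for day 18. At the edge of the rule, the 3 members with the smallest ratios had 2.01, 2.02 and 2.02, and the 3 nearest genes left out had 2.00, 1.99 and 1.99.

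**Figure D1:**
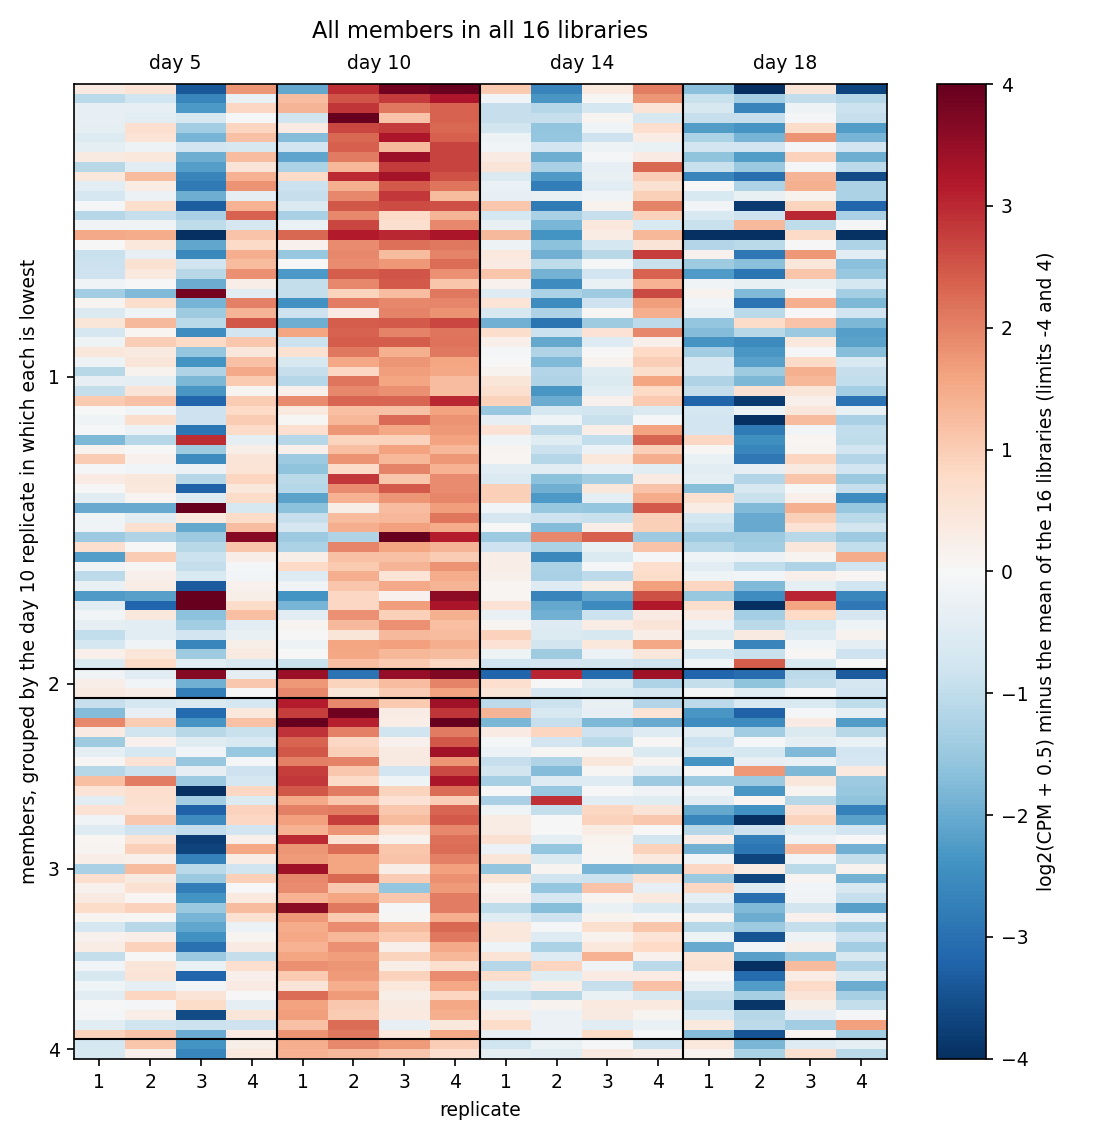
Each row is 1 of the 100 members and each column 1 of the 16 libraries, and colour gives log2(CPM + 0.5) minus the mean of that gene over all libraries. Rows are grouped by the day 10 replicate in which the member is lowest, and the 60 members of the top block are lowest in day 10 replicate 1.

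ENSBTAG00000043570 had the highest day 10 level of all members. Its 4 day 10 libraries held 2270, 2992, 1945 and 3988 CPM in the order of replicates 1 to 4, against 501, 375, 190 and 683 CPM on day 5. The day 14 libraries held 1086, 766, 1267 and 1741 CPM and the day 18 libraries 365, 298, 418 and 324 CPM. All 4 day 10 libraries lay above the other 12, and the 4 day 14 libraries lay above all libraries of days 5 and 18. The fitted log2 fold change of day 10 was 2.58 ± 0.33 (SE) to day 5, 1.19 ± 0.31 to day 14 and 2.94 ± 0.33 to day 18, values that belong to the contrasts used to choose it.

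ENSBTAG00000021119 had the second highest day 10 level, with 1182, 2183, 1949 and 2298 CPM in replicates 1 to 4. The day 5 libraries held 683, 667, 14.4 and 534 CPM, and those of day 14 586, 44.8, 297 and 604 CPM. In the day 18 libraries it was at 13.5, 6.34, 409 and 15 CPM. The day 10 libraries again lay above all 12 others. Within each other day 1 library differed widely from the rest: day 5 replicate 3 and day 14 replicate 2 were far below, and day 18 replicate 3 was far above.

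ENSBTAG00000002205 had the largest ratio, 10.2, at a low level. It had 200, 79, 36 and 228 reads in the 4 day 10 libraries, which are 9.47, 3.76, 1.83 and 11.2 CPM. Summed over the 4 libraries of a day, it had 543 reads on day 10 against 15, 13 and 12 on days 5, 14 and 18. Scaled by depth, day 10 held 35.5 times the reads of day 5, with a 95% exact (Clopper-Pearson) counting interval of 21.4 to 63.9. The ratios to days 14 and 18 were 43.5 (25.2 to 82.2) and 45.1 (25.6 to 87.8). These intervals cover counting error only, and the day 10 libraries themselves differed by more than that. The gene was picked for its ratio in these same libraries, so the intervals are no test of the peak. No library of days 5, 14 and 18 had more than 0.418 CPM, and day 14 replicate 4 had 0 reads, which allows up to 0.156 CPM.

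ENSBTAG00000020402 had the next largest ratio, 6.66, but not in all libraries. It held 122, 230 and 248 CPM in day 10 replicates 2, 3 and 4, and 3.32 CPM in replicate 1. Day 5 libraries held 19.8, 22.6, 0.994 and 53.8 CPM and day 14 libraries 31.9, 2.02, 20.2 and 65.2 CPM. In the libraries of day 18 the values were 4.45, 0.484, 21.8 and 0.738 CPM. Day 10 replicate 1 thus lay below 3 of the 4 day 5 libraries and below 3 of the 4 day 14 libraries, so the days overlapped for this gene.

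**Figure D2:**
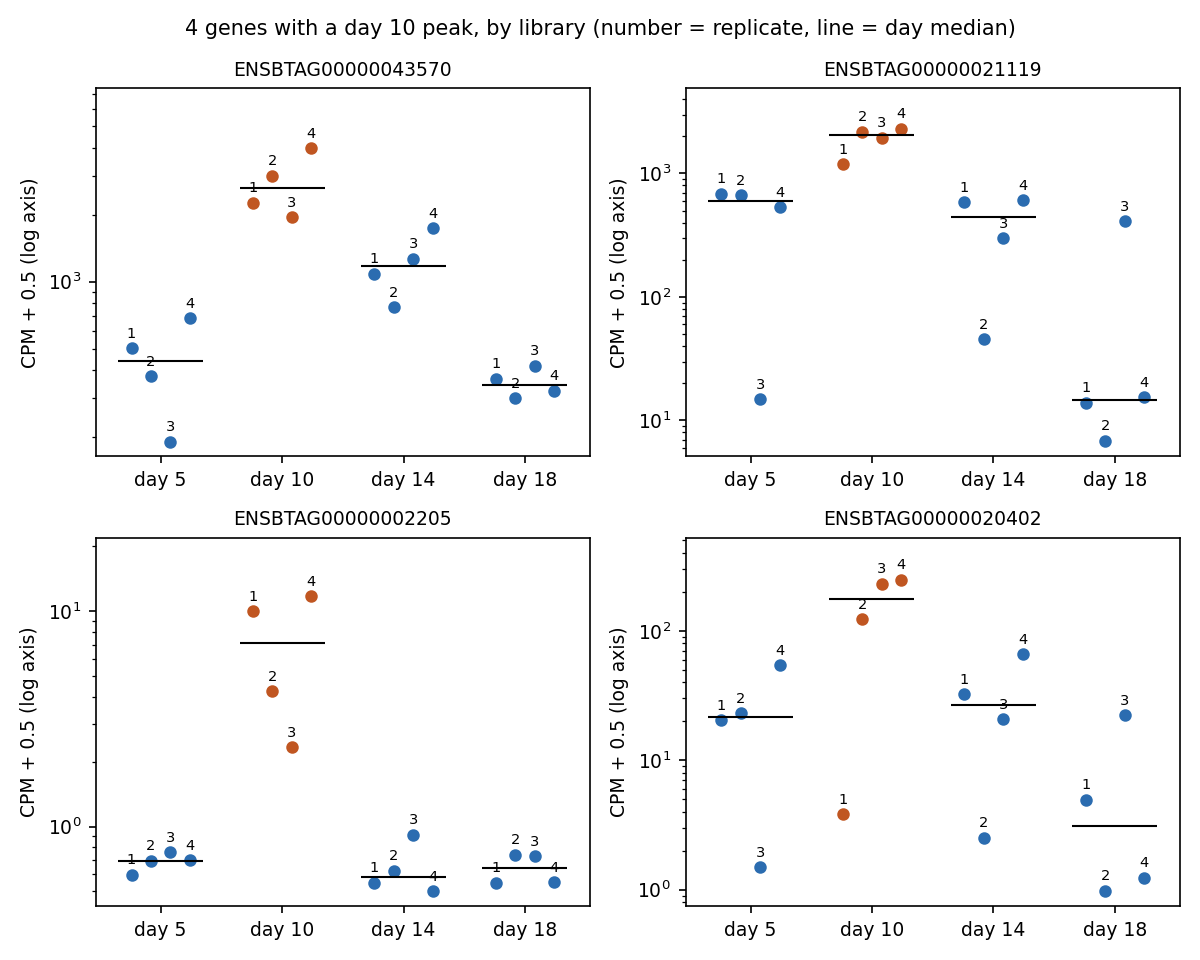
Each panel shows 1 of the 4 members given by ID, with CPM + 0.5 on a log axis by day, 1 point per library labelled with its replicate number, and a line at the day median. The day 10 points lie above all others except for replicate 1 of ENSBTAG00000020402, at 3.32 CPM.

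The spread within day 10 was wide for members. The highest day 10 library held 5.01 times the lowest at the middle of the list, on the CPM + 0.5 scale, against 1.44 times at the middle of the other genes with at least 2 CPM. In 59 of 100 members this span was at least 4 times, as in 2.81% of the other genes. The median of 4 libraries does not move with the lowest of them, and the difference in spread was not tested. The rule used these day 10 values and the other genes were not matched for level, so nothing is read from this difference either. In 18 members all 4 day 10 libraries lay above the other 12 libraries, which 0.405% of the genes with at least 2 CPM on day 10 did. Because the rule used these values, nothing is read from that difference. In another 43 members 3 day 10 libraries did so, and in 11 members none did. The share of all genes for these counts is not given here, so nothing is read from them either.

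Most members were lowest in the same pair of day 10 libraries. Of the 100, 60 were lowest in replicate 1, 35 in replicate 3, 3 in replicate 2 and 2 in replicate 4. Among the other genes with at least 2 CPM, 37.4% were lowest in replicate 1 and 22.5% in replicate 3. Replicate 4 lay above the highest other day median in all 100 members, replicate 2 in 98, replicate 3 in 88 and replicate 1 in 55. Of the other genes with at least 2 CPM, 31.8%, 33.6%, 31.5% and 24.3% did so in replicates 4, 2, 3 and 1. The rule used these values, so nothing is read from that difference, nor from which day 10 library was lowest. In 43 members replicate 1 lay below the day 5 median, and the share of other genes is not given here.

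**Figure D3:**
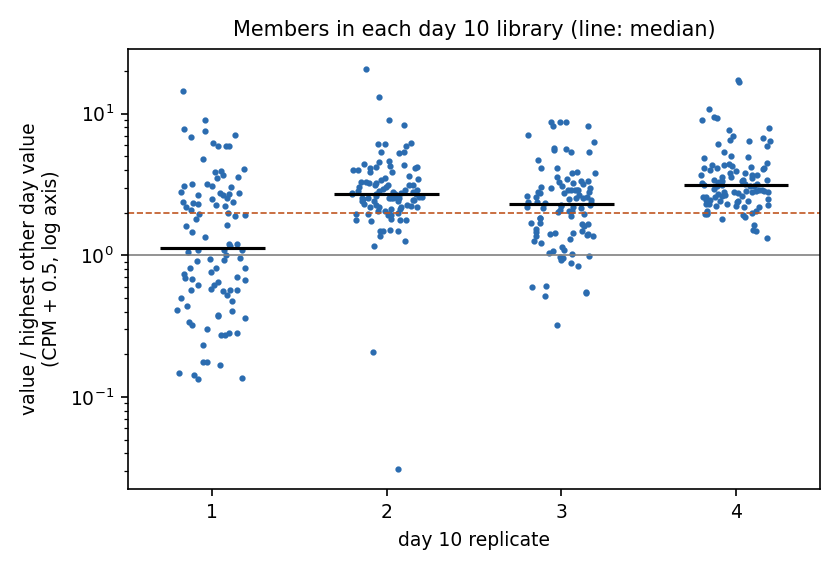
Each point is a member in 1 day 10 library, plotted as its value divided by the highest value of days 5, 14 and 18 (CPM + 0.5, log axis), with the median as a line, the dashed line at 2 and the solid line at 1. The median is 1.13 in replicate 1, 2.70 in replicate 2, 2.31 in replicate 3 and 3.12 in replicate 4.

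To read the peak in a library that the choice did not use, each day 10 library was left out in turn and the rule applied to the other 15. Without replicate 4 the rule chose 79 genes, of which 58 (73.4%) reached 2 times the highest other day in replicate 4 itself. The share among genes not chosen was 0.992%. For replicate 2 the count was 58 of 115 genes (50.4%, against 0.835%), and for replicate 3 it was 47 of 122 (38.5%, against 0.557%). For replicate 1 it was 24 of 132 (18.2%, against 0.874%). The median ratio of the chosen genes in the library left out was 2.79 for replicate 4, 2.04 for replicate 2, 1.59 for replicate 3 and 0.854 for replicate 1. In replicate 1, 55 of the 132 chosen genes (41.7%) were above the highest other day at all, where 24% of the genes not chosen were. The levels of days 5, 14 and 18 were used in each of these choices, so only the day 10 side is independent.

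The members lowest in replicate 1 and those lowest in replicate 3 also differed in libraries of the other days, which did not enter this grouping. The grouping was made after the values were seen, so the values are described without a test. The 60 members lowest in day 10 replicate 1 were below their day 14 median in day 14 replicate 2 in 56 cases, with a median log2 difference of -1.21. They were above it in day 14 replicate 4 in 54 cases, with a median of 1.04. In day 18 replicate 3 they were above the day 18 median in 55 cases, with a median of 1.05, and in day 5 replicate 4 they were above the day 5 median in 53, with a median of 0.63. Other genes with at least 2 CPM had medians of -0.08, 0.03, 0.01 and 0.06 in these 4 libraries, with 63.4% below the day median in the first and 56.7%, 51.1% and 61.4% above it in the others.

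The 35 members lowest in day 10 replicate 3 varied less between the day 14 libraries. Their medians there were -0.61 in replicate 2 and 0.11 in replicate 4, beside -0.08 and 0.03 for other genes. In these libraries 25 of 35 were below and 20 of 35 above the day median, where 63.4% and 56.7% of other genes were. In day 5 replicate 4 the 35 members were at 0.05, beside 0.06 for other genes. In day 18 replicate 3 they were at 0.44, beside 0.01, with 27 of 35 above the day median, where 51.1% of other genes were. In day 5 replicate 3 both sets were low, at -1.47 for the 60 members and -1.93 for the 35, against -0.36 for other genes. Within day 10 the 60 members were 2.15 log2 units under their day median in replicate 1, and the 35 members were at 0.34 there and at -1.14 in replicate 3.

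**Figure D4:**
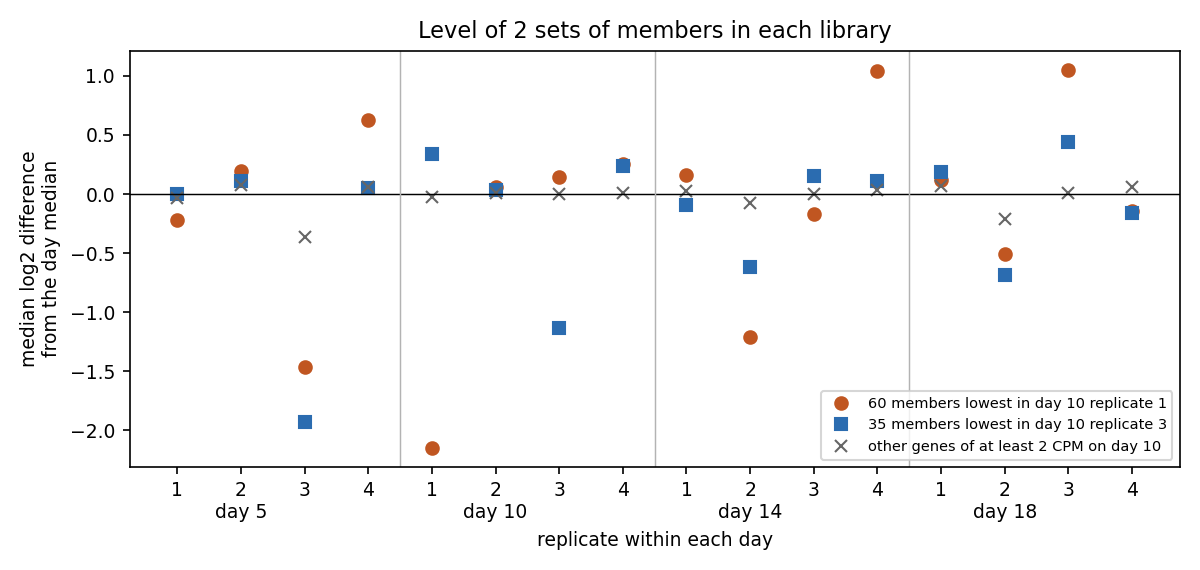
For each of the 16 libraries, the points give the median log2 difference from the day median, on the CPM + 0.5 scale, for the 60 members lowest in day 10 replicate 1, the 35 lowest in day 10 replicate 3, and the other genes. The 60 members are low in day 14 replicate 2 (-1.21) and high in day 14 replicate 4 (1.04) and day 18 replicate 3 (1.05), while other genes stay near 0 in these libraries.

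The library pattern of the first set was not limited to members. Of genes at least 2 log2 units below their day 10 median in day 10 replicate 1, 34 were members and 52 were not. In day 14 replicate 2 the median difference was -1.28 in the 34 members and -1.10 in the 52 other genes, and in day 14 replicate 4 it was 1.27 and 1.04. In day 18 replicate 3 it was 1.87 and 0.81. Which cell types or processes these genes mark was not tested, since no ID could be tied to a marker.

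The rule does not set the order of days 5, 14 and 18, and here the members leaned to low values on day 18. Day 18 had the lowest median of the 3 days in 68 of 100 members, as in 23.4% of the other genes with at least 2 CPM. Day 5 was the highest of the 3 in 51 members, against 31.8% of other genes, and day 14 in 38, against 41.6%. The medians were in the order day 5, day 14, day 18 from high to low in 37 members, as in 12.8% of other genes. At the middle of the list the day 10 value exceeded that of day 5 by 1.58 log2 units, that of day 14 by 1.74 and that of day 18 by 2.31. Without the 3 libraries that stand apart day 18 was the lowest of the 3 in 69 members, against 22.8% of other genes, and the order day 5, day 14, day 18 held in 45, against 16.8%. Day 5 was then the highest in 55 members, against 35.3% of other genes. Day 14 was the highest in 32, against 22.4%, so the members' share of it passed from below that of other genes to above it.

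Differences among these 3 days were tested with edgeR's quasi-likelihood test over all 16331 genes with enough reads, 99 of the members among them, with Benjamini-Hochberg adjustment. The 3 comparisons share libraries and are not independent of each other. On day 14 against day 5, 1 of 99 members passed the adjusted threshold of 0.05, higher on day 14, where 1.13% of all tested genes were. It was ENSBTAG00000043570, with means of 437 CPM ± 208 (SD, n = 4) on day 5 and 1215 CPM ± 408 on day 14. The fitted difference was 1.39 log2 units with an SE of 0.31 (edgeR adjusted p = 0.0465). All 4 day 14 libraries were above all 4 day 5 libraries. The call was lost in 14 of 23 alternatives, over which edgeR and DESeq2 gave adjusted p from 0.000954 to 0.121. Of day 5, leaving out replicate 1, 2 or 4 ended it (0.121, 0.0856 and 0.0867). Leaving out any of the 4 libraries of day 10 also ended it (0.0607 to 0.068), as did leaving out any of the 4 of day 14 (0.0683 to 0.121). Calls over all tested genes, 367 with all libraries, numbered 0 without day 5 replicate 1, 2 or 4. They numbered 0 to 58 without a library of day 10 and 0 to 1 without one of day 14. The log2 difference of ENSBTAG00000043570 ranged from 1.19 to 1.64 over the 23 alternatives. At an unadjusted p under 0.05, 4 members were lower on day 14 and 5 higher, where 12.9% and 11.7% of all tested genes were. DESeq2 called 3 higher and 2 lower, where 5.93% and 7.18% of its tested genes were, and edgeR without the 3 libraries that stand apart called 2 higher and 3 lower, where 9.36% and 9.62% were. The members' median log2 difference was -0.16, with 56 of 99 lower on day 14, beside -0.02 over all tested genes. The median was 0.13 when day 5 replicate 4 was left out, 0.01 when day 14 replicate 2 was and -0.39 when day 14 replicate 4 was, so its sign was not stable.

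Between day 18 and day 14 none of the 99 members passed, and 0% of all tested genes did. At an unadjusted p under 0.05, 11 members were lower on day 18, where 3.29% of all tested genes were, and 3 were higher, where 8.08% of all tested genes were. DESeq2 called 3 members, all lower, and 0.354% of its tested genes were called lower. The median log2 difference of the members was -0.63, with 74 of 99 lower on day 18, beside 0.03 over all genes, where 47.2% were lower. Day 18 replicate 3 weighed on this median: with it left out the median was -1.29, with 88 of 100 lower, and 25 members were lower at an unadjusted p under 0.05, where 4.66% of all tested genes were. Leaving out all 3 libraries that stand apart gave 23 such members, where 4.16% of all tested genes were. With day 14 replicate 4 left out the median was -0.23, with 63 of 100 lower. For ENSBTAG00000043570 the fitted difference was -1.75 log2 units with an SE of 0.32, which missed the threshold (edgeR adjusted p = 0.219) although the libraries of both days did not overlap.

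Between day 18 and day 5 edgeR called none of the 99 members and 0% of all tested genes. At an unadjusted p under 0.05, 9 members were lower on day 18 and 0 higher, where 5.55% and 8.1% of all tested genes were. DESeq2 called 0 members, and 0.277% of its tested genes lower. The median log2 difference was -0.64, and 81 of 99 members were lower on day 18, beside 0.02 and 47.8% over all genes. This comparison turned on day 18 replicate 3, the library closest to day 5 replicate 4, with a label that could not be checked. When day 18 replicate 3 was left out, edgeR called 13 members, all lower on day 18, where 2.66% of all tested genes were called lower, and the members' median was -1.26. When the 3 libraries that stand apart were left out together it called 14, all lower, where 7.38% of all tested genes were called lower. For ENSBTAG00000021119 the fitted difference was -2.12 log2 units with an SE of 1.22 over all libraries (edgeR adjusted p = 0.435). It was -5.40 when day 18 replicate 3 was left out (edgeR adjusted p = 0.0216). ENSBTAG00000020402 stood at -1.83 log2 units with an SE of 1.31 (edgeR adjusted p = 0.521). It stood at -3.73 when day 18 replicate 3 was left out, at -3.68 when all 3 libraries were and at -1.12 when day 5 replicate 4 was, and adjusted p by edgeR or DESeq2 ran from 0.136 to 0.766 over the 23 alternatives.

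The contrasts with day 10 were used to choose the members, so their calls are given as a description and nothing is read from them. Against day 5 edgeR called 4 of 99 members, all higher on day 10, where 0.098% of all tested genes were called higher. Same-numbered libraries of these days deviated in the same sense, but differently numbered ones were not compared, so pairing is not known. A fit blocked on that number called 1 member, the only gene called of all 16331 tested. Against day 18 the fit without the block called 6 members, all higher on day 10, where 0.0735% of all tested genes were. Against day 14 it called 0 of 99 and 0% of all tested genes, while 52 members were higher at an unadjusted p under 0.05, where 3.36% of all tested genes were. DESeq2 called 25 members against day 5, 11 against day 14 and 48 against day 18, all higher on day 10, where 3.02%, 0.208% and 1.61% of its tested genes were called higher.

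These counts changed when single libraries were left out, also libraries of days outside the contrast, and the calls over all tested genes moved too. Why they changed was not tested. The count of 4 against day 5 went to 0 when day 5 replicate 1 or 2 was left out and to 1 when day 5 replicate 4 was. It went to 2 on leaving out day 5 replicate 3, day 10 replicate 2, 3 or 4, day 14 replicate 1 or day 18 replicate 4. Against day 5, calls over all tested genes in either direction numbered 23 with all libraries. They numbered 0, 0 and 1 without day 5 replicates 1, 2 and 4, and 2 to 14 in the settings with 2 members. Against day 18 the count of 6 went to 2 on leaving out day 5 replicate 1 or 4, day 10 replicate 2 or 4, day 14 replicate 1, or day 18 replicate 2 or 4. It went to 3 when day 5 replicate 2 was left out and to 12 when day 5 replicate 3 was. With day 18 replicate 3 left out it was 25, where 0.702% of all tested genes were called higher. Against day 18, calls over all tested genes numbered 16 with all libraries and 3 to 6 in the settings with 2 members. They numbered 5 and 47 without day 5 replicates 2 and 3. When the 3 libraries that stand apart were left out together, edgeR called 18 members against day 5, 13 against day 14 and 31 against day 18, where 3.86%, 0.514% and 1.09% of all tested genes were called higher on day 10.

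The members together took a small part of all reads. They held 1.26%, 2.28%, 1.89% and 2.38% of gene reads in day 10 replicates 1 to 4, a mean of 1.95% ± 0.506 (SD, n = 4). The means of days 5, 14 and 18 were 0.659% ± 0.130, 0.738% ± 0.340 and 0.395% ± 0.171. Leaving out the 3 libraries that stand apart, the means were 0.708% on day 5 (n = 3) and 0.314% on day 18 (n = 2). The lowest day 10 library, at 1.26%, stood close to the highest day 14 library, replicate 4 at 1.16%. On day 18, replicate 3 held 0.652% and the other 3 libraries 0.301% to 0.325%. These shares follow from the choice of members on day 10 and are given without a test.

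**Figure D5:**
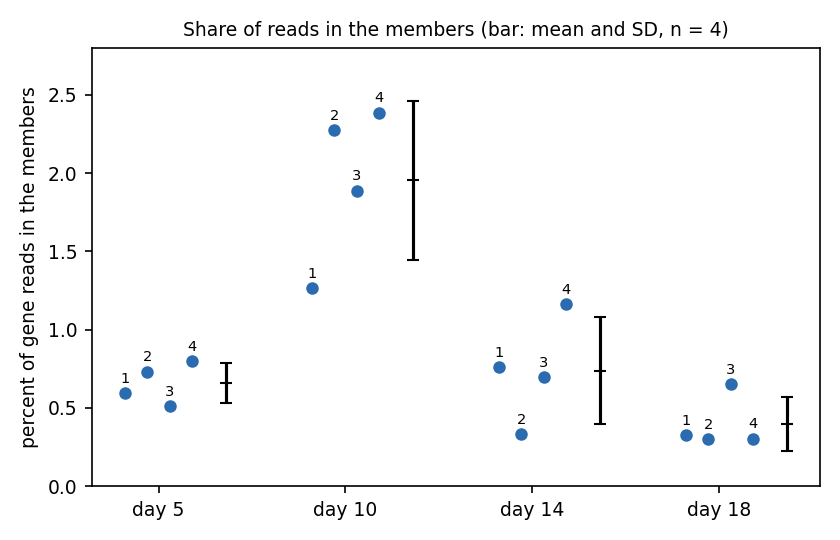
Points give the percent of gene reads that fell in the 100 members in each library, by day and labelled with the replicate number, and the bar beside them the mean and SD of 4 libraries. Day 10 libraries lie between 1.26% and 2.38%, and day 18 replicate 3, at 0.652%, lies above the other day 18 libraries.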

How the data were processed

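Per the labels' protocols, poly(A) RNA of 16 endometrial biopsies, 4 per day, was sequenced from stranded libraries. The authors deposited raw read counts per gene, 1 table per library. The submitters' processing notes name STAR, FastQC and edgeR with no version. The genome build is not given in the sources used here. The column of the strand with 98.3% to 98.6% of stranded gene reads was used. Summary lines that name no gene stayed out of library sizes and tests, and reads without a gene feature made up 23.1% to 33.4% of reads with or without one. The line for multimapping reads holds 0 throughout, so values of near-identical genes are uncertain.

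Plain CPM was computed from the counts. Tests used edgeR 4.0.16 (R 4.3.3), with filterByExpr by day, TMM, a robust quasi-likelihood fit of all 4 days, contrasts and Benjamini-Hochberg adjustment. DESeq2 1.42.0 was an alternative. SE is the log2 fold change divided by the square root of F. Python 3.11.15, NumPy 2.4.6, pandas 2.3.3 and Matplotlib 3.10.9 were used. The test was tested on simulated data. Within each day all pairs of libraries differed by more than sampling noise (24 pairs, with chi-square at least 36.2 times its degrees of freedom).

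The members, the gene lists and the 3 libraries left out together were chosen with earlier results of these data known. Members given by ID were the 2 with the highest day 10 median and the 2 with the largest ratio. Gene and marker lists could not be used without symbols, nor could promoters. Replicate numbers come from the sample titles. For days 5 and 10, each of the 4 same-numbered pairs deviated from its day means in the same sense, with correlations over genes from 0.12 to 0.32, above a cutoff of 0.1. No other 2 days passed this in all pairs, though their single pairs ran from -0.296 to 0.354. Differently numbered libraries were not compared, so these values do not show that libraries are paired.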

Additional observations from a re-analysis of the deposited data

Results flagged for a closer look

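In 3 of 20 groups of 4 libraries examined, 1 library was far from its 3 day mates, where chance gives about 1 such group. Day 18 replicate 3 held 0.652% of its gene reads in the members, against 0.301% to 0.325% in the other day 18 libraries. ENSBTAG00000021119 stood at 3.90 in day 5 replicate 3 on the log2(CPM + 0.5) scale, against 9.06 to 9.42 in the other day 5 libraries. ENSBTAG00000020402 stood at 1.93 in day 10 replicate 1 on the same scale, against 6.94 to 7.95 in the other day 10 libraries.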

How the results depend on the processing

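The number of members was 100 and lay between 85 and 104 with TMM scaling (85), an offset of 1 CPM (88), day means in place of medians (88, with 70 of the 100 members kept), unstranded counts (104) and without the 3 libraries that stand apart (96, with 87 kept). It was 30 with a minimum ratio of 3, which is part of the construction, and 79 to 132 with 1 library left out. Without day 10 replicate 1, 2, 3 or 4, 86, 79, 85 and 68 of the 100 members were kept. Without 1 library of another day, 84 to 97 were kept. Members called on day 14 against day 5 numbered 5 with DESeq2, 0 with no filter, 0 with the replicate block, 2 in a fit of only these days, 5 without the 3 libraries, and 0 to 1 with 1 library left out. In that order, 2225, 64, 0, 1145, 3174 and 0 to 1274 of all 15654 to 21807 tested genes were called. On day 18 against day 14 the members called numbered 3 with DESeq2 and 0 with each library left out. There 285 of 16973 and 0 to 1 of all tested genes were called. On day 18 against day 5 the members called numbered 14 without the 3 libraries and 0 to 13 with 1 library left out. There 2442 of 16723 and 0 to 864 of all tested genes were called. For day 10 against day 5 the number of members called was 25 with DESeq2, 2 with no filter, 1 with the replicate block, 8 in a fit of only these days, 18 without the 3 libraries and 0 to 6 with 1 library left out. In that order, 1177, 9, 1, 230, 1526 and 0 to 221 of all 15656 to 21807 tested genes were called. For day 10 against day 14 the number of members called was 11 with DESeq2, 13 without the 3 libraries and 0 with each library left out. There 58 of 17803, 115 of 16723 and 0 to 1 of all tested genes were called. For day 10 against day 18 the number of members called was 48 with DESeq2, 3 with no filter, 1 with the replicate block, 3 in a fit of only these days, 31 without the 3 libraries and 2 to 25 with 1 library left out. In that order, 767, 7, 1, 4, 301 and 3 to 252 of all 15696 to 21807 tested genes were called. The causes were not tested. Only days 5 and 10 passed the cutoff on same-numbered libraries in all pairs, and pairing is not known for any days. The block thus removes degrees of freedom without a shared source being known. None of the log2 fold changes followed for members given by ID changed sign in these alternatives. For contrasts with day 10 the choice of members largely set the sign. Day 14 against day 5 was followed for ENSBTAG00000043570 only. Members near 2 CPM rest on the fewest reads, and 4 libraries per day limit all tests.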

Other observations

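In 11 members the highest of all 16 libraries was not a day 10 library. It was day 5 replicate 3 in 5 of them and day 14 replicate 4 in 2, with 1 each in day 14 replicate 2 and day 18 replicates 2, 3 and 4. Day 5 replicate 3 is 1 of the 3 libraries that stand apart. The share of other genes is not given for these counts, so nothing is read from them. Members with a high level had the more even day 10 libraries. The highest day 10 library held 2.84 times the lowest at the middle of the 8 members with 1000 CPM or more and 8.29 times at the middle of the 29 members below 10 CPM. Figures by level are not given for other genes, so this is not read as a trait of members. Of the 18 members with all day 10 libraries above the other 12, 13 were lowest in day 10 replicate 3 and 4 in replicate 1. That split is not given for all genes and uses values of the rule, so it is a description only. Reads on the strand opposite to the counted one exceeded 10% of a gene's stranded reads in 2 members and in 3.82% of the other genes with at least 2 CPM.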
